A study of Mus musculus with 10 samples.

Results

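Genomic imprinting leaves 1 parental copy of a gene active, and in the mouse many imprinted genes lie in clusters that hold both protein-coding genes and long non-coding RNAs. Several of them are strongly expressed in the fetal liver, are shut down after birth and are known to come back in some liver tumours. The 10 genes described here were H19, Igf2, Dlk1, Meg3, Peg3, Grb10, Igf2r, Plagl1, Mest and Kcnq1ot1, taken from the 55020 lines of the deposited table by their gene symbols. A symbol with several lines took the line with the highest mean, which concerned Dlk1, with 2 lines, so that the 10 symbols stood on 11 lines. The comparison asks whether these genes were transcribed in the tumours, which of them were silent, and whether an inhibitor of EZH2, the histone methyltransferase of Polycomb repressive complex 2, went with a change in their level.

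The tumours were Hepa1-6 tumours. Hepa1-6 is a single mouse hepatoma line, injected under the skin of C57/BL6 mice and grown for 4 weeks. There were 5 tumours from mice given GSK343, the EZH2 inhibitor, and 5 tumours from mice given vehicle, and the design text calls them biological replicates. GSK343 is named in the titles of the first group, while the titles of the other group carry a C, which was read as vehicle because only these conditions are named. The labels also mention injections of a control antibody or of an antibody against asialo-GM1, which depletes natural killer cells, but no label gives the antibody of a tumour, so it could not be compared or held apart. The sources used here do not give the age or sex of the mice, or the dose and schedule of the drug. All 10 tumours were whole pieces of tissue, so host cells contributed RNA, and fewer cells of a type cannot be told apart from less RNA per cell. The values carry no allele, so the parental copy that was read is unknown.

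Levels are given as FPKM, read fragments relative to the length of a gene's exons and to the size of the library, a unit that allows genes to be compared per length. An inference from the steps between low values put the libraries at 38.1 to 50.6 M reads each (M, mega). All 11 hepatocyte and hepatoma markers were above 1 FPKM on average, with sums of 3370 to 4520 FPKM in GSK343 tumours and 4200 to 5630 FPKM in vehicle tumours. Their log2 fold change was below 0 in 10 of 11, while 47.6% of all lines tested were above 0. Several tumours stood apart. Mitochondrial transcripts made up 7.17% and 7.11% of the signal in GSK343 replicates 3 and 5, 2.64% to 3.82% in the other GSK343 tumours and 2.78% to 5.05% in vehicle tumours. The 10 skeletal muscle markers summed to 67.7 to 488 FPKM in GSK343 tumours and 3.26 to 118 FPKM in vehicle tumours, where vehicle replicate 2 was the lowest. The 10 pan-leukocyte markers summed to 690 to 1205 FPKM in GSK343 tumours and 340 to 994 FPKM in vehicle tumours, where vehicle replicate 2 was the highest. No marker of these lists, or of the fibroblast, endothelial, pericyte or adipocyte lists, passed the test between the groups.

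Of the 10 imprinted genes, 7 had a mean of at least 1 FPKM over all tumours and were tested, and 3 did not reach 1 FPKM in any tumour. Even the 7 were weakly expressed. H19 had the highest mean of the 10, 2.89 FPKM, and ranked 11770 among the 14496 lines that averaged 1 FPKM or more. Mest followed at 2.65 FPKM, Igf2r at 2.50 FPKM, Igf2 at 2.24 FPKM, Grb10 at 2.20 FPKM, Meg3 at 2.02 FPKM and Kcnq1ot1 at 1.15 FPKM. In this order no neighbours among the first 7 differed by more than the spread of their difference over the 10 tumours. Peg3 followed at 0.221 FPKM, below Kcnq1ot1 in all 10 tumours, Plagl1 at 0.0643 FPKM, below Peg3 in all 10 tumours, and Dlk1 at 0.0323 FPKM, which differed from Plagl1 by less than that spread.

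**Figure D1:**
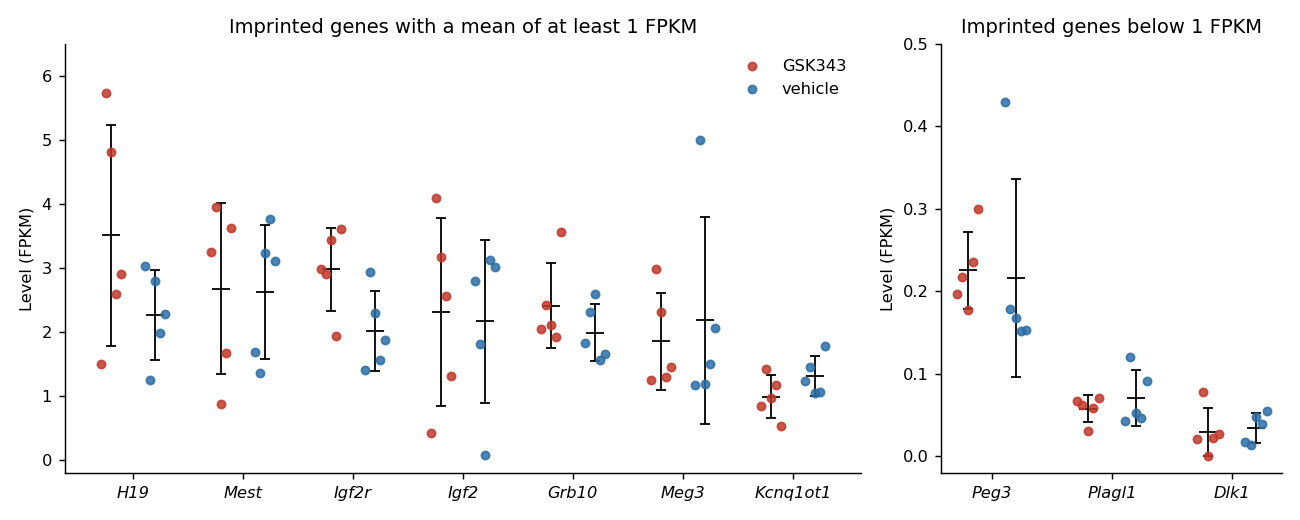
Level of each imprinted gene in FPKM in 5 GSK343 tumours (red) and 5 vehicle tumours (blue), with 1 point per tumour, the horizontal bar at the mean and the error bar at 1 SD. The left panel holds the 7 genes with a mean of at least 1 FPKM and the right panel the 3 below it on a smaller scale. GSK343 and vehicle tumours overlap in all 10 genes.

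No imprinted gene passed the test between GSK343 and vehicle tumours. Of the 7 genes tested, 0 had a limma adjusted p under 0.05, against 0.0828% of all lines tested (12 of 14496), 0.069% higher and 0.0138% lower in GSK343 tumours. In 0 of the 7 were the groups without overlap, against 2.62% of all lines. An unadjusted p under 0.05 was reached by 1 gene, Igf2r, against 17.6% of all lines. The log2 fold change was above 0 in 4 of the 7 genes, against 47.6% of all lines, with a median of 0.07 over the 7 genes and of −0.01 over all lines. All 7 fold changes lay within the range from −0.29 to 0.67 that held the central 90% of all lines.

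**Figure D2:**
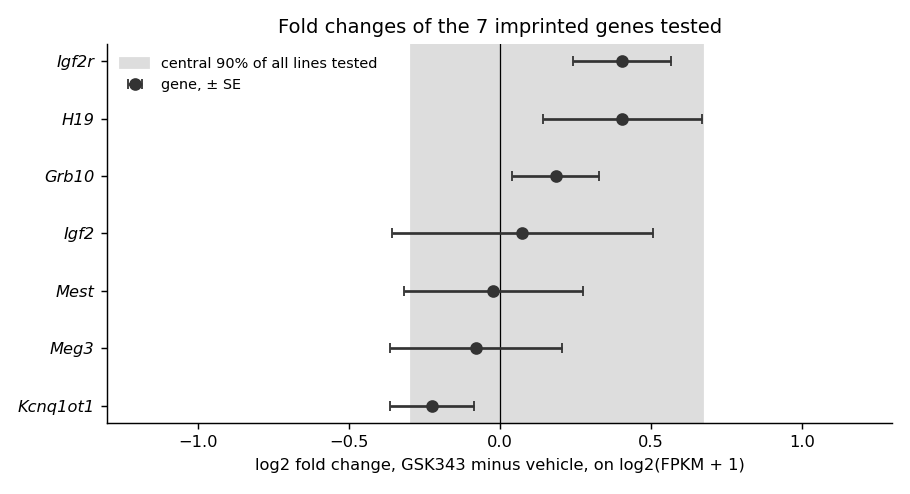
The log2 fold change (GSK343 minus vehicle, on log2(FPKM + 1)) of the 7 imprinted genes tested, with bars of 1 SE, beside the grey range that holds the central 90% of the 14496 lines tested. All 7 points lie inside the grey range, between −0.22 for Kcnq1ot1 and 0.41 for Igf2r.

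The insulin-like growth factor branch comes first. Igf2, a paternally expressed fetal growth factor (mm10 chr7:142650766-142666816, minus strand), had 0.422, 4.10, 3.16, 2.57 and 1.31 FPKM in GSK343 replicates 1 to 5, against 2.80, 1.81, 0.0851, 3.12 and 3.02 FPKM in vehicle replicates 1, 2, 3, 5 and 6. GSK343 replicate 1 and vehicle replicate 3 were the lowest of their groups, and the groups overlapped. The means were 2.31 ± 1.46 FPKM in GSK343 tumours and 2.17 ± 1.28 FPKM in vehicle tumours (SD, n = 5 each; log2 fold change 0.07, SE 0.432, limma adjusted p = 0.945). The same 2 tumours were the only ones with a value on RP23-209O22.2, a protein-coding line on the same strand that shares 3596 of the 5723 exon bases of Igf2. That line held 1.92 FPKM in GSK343 replicate 1 and 1.74 FPKM in vehicle replicate 3, and was listed at 0 in the other 8 tumours. Summed over both lines, an alternative chosen after the data were seen, Igf2 averaged 2.70 ± 1.03 FPKM in GSK343 tumours and 2.52 ± 0.649 FPKM in vehicle tumours (SD, n = 5 each; log2 fold change 0.05, SE 0.206, limma adjusted p = 0.928). With the sum, no tumour was below 1.31 FPKM.

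**Figure D3:**
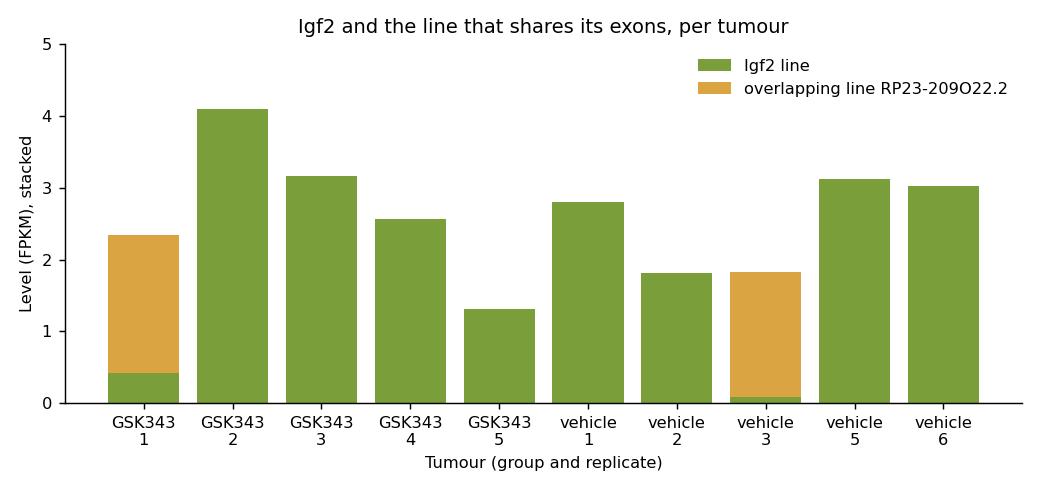
FPKM of the Igf2 line (green) and of the overlapping line RP23-209O22.2 (orange), stacked, in each of 5 GSK343 and 5 vehicle tumours. The orange part appears in GSK343 replicate 1 and vehicle replicate 3, the tumours with the lowest Igf2 line, where it holds 1.92 and 1.74 FPKM.

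Igf2r, the maternally expressed receptor that binds IGF2 and carries it to lysosomes for breakdown (chr17:12682406-12769664, minus strand), had 2.99, 2.91, 3.44, 1.94 and 3.61 FPKM in GSK343 replicates 1 to 5, against 1.40, 2.95, 2.30, 1.57 and 1.87 FPKM in vehicle replicates 1, 2, 3, 5 and 6. All GSK343 tumours but replicate 4 held more than every vehicle tumour but replicate 2. The means were 2.98 ± 0.650 FPKM in GSK343 tumours and 2.02 ± 0.621 FPKM in vehicle tumours (SD, n = 5 each; log2 fold change 0.41, SE 0.162). Its unadjusted limma p was 0.0301 and its limma adjusted p 0.243. The pan-leukocyte markers moved with it. All 10 of these markers had a log2 fold change above 0, 8 of them with an unadjusted limma p under 0.05, none was at 0 in any tumour, and their score was highest in GSK343 replicates 5 and 3, which also held the most Igf2r. The fibroblast markers moved with it as well, with 12 of 12 above 0, 9 of them with an unadjusted limma p under 0.05. They summed to 662 to 1343 FPKM in GSK343 tumours and 450 to 854 FPKM in vehicle tumours. Of all lines, 47.6% were above 0, and 10.7% had an unadjusted limma p under 0.05 in that direction. When the pan-leukocyte score entered the fit as a covariate, the log2 fold change of Igf2r was −0.01, and with the fibroblast score it was 0.003 (limma adjusted p = 0.998 and 0.999). The markers of both scores were higher on average in GSK343 tumours, so the scores and the drug cannot be told apart. With either covariate 2 of all lines were called, against 12 without. The part of these markers in Igf2r was not tested.

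Grb10, an adaptor protein that restrains insulin and IGF receptor signalling (chr11:11930508-12038683, minus strand), had 2.05, 2.42, 2.12, 1.92 and 3.56 FPKM in GSK343 replicates 1 to 5, against 1.83, 2.31, 2.59, 1.56 and 1.65 FPKM in vehicle replicates 1, 2, 3, 5 and 6. GSK343 replicate 5 was the highest of all 10 tumours, and the other GSK343 tumours lay within the vehicle range. The means were 2.42 ± 0.668 FPKM in GSK343 tumours and 1.99 ± 0.444 FPKM in vehicle tumours (SD, n = 5 each; log2 fold change 0.19, SE 0.144, limma adjusted p = 0.526). Its log2 fold change was −0.08 with the pan-leukocyte score and −0.16 with the fibroblast score as a covariate. Without GSK343 replicate 5 it was 0.08 (limma adjusted p = 0.822). What part the marker lists had in Grb10 was not tested.

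Around these genes, the non-imprinted members of the IGF system gave no call. Of 10 ligands, receptors and adaptors, 9 were tested and 0 passed, and 1, the adaptor Grb14, had an unadjusted limma p under 0.05, with 33.4 ± 4.46 FPKM in GSK343 tumours and 42.8 ± 6.76 FPKM in vehicle tumours (SD, n = 5 each; log2 fold change −0.34, limma adjusted p = 0.213). Grb7, another adaptor of the same family, averaged 46.7 ± 9.64 FPKM in GSK343 tumours and 56.6 ± 8.30 FPKM in vehicle tumours (SD, n = 5 each; log2 fold change −0.29, limma adjusted p = 0.337). Igf1, the postnatal ligand, averaged 11.6 ± 9.12 FPKM in GSK343 tumours and 5.85 ± 6.40 FPKM in vehicle tumours (SD, n = 5 each; limma adjusted p = 0.345). Igf1r, the signalling receptor of both ligands, stayed below 1 FPKM on average, at 0.862 ± 0.121 FPKM in GSK343 tumours and 0.731 ± 0.0431 FPKM in vehicle tumours. All 8 IGF binding proteins were tested and 0 passed. Among them Igfbp7 held 186 to 276 FPKM in GSK343 tumours and 118 to 183 FPKM in vehicle tumours, without overlap, as 1.42% of all lines did in this direction (log2 fold change 0.50, SE 0.144, limma adjusted p = 0.192). Igfbp3 averaged 372 ± 36.4 FPKM in GSK343 tumours and 486 ± 123 FPKM in vehicle tumours (SD, n = 5 each; limma adjusted p = 0.265). Igfbp6 averaged 14.9 ± 7.84 FPKM in GSK343 tumours and 8.85 ± 5.75 FPKM in vehicle tumours (SD, n = 5 each; limma adjusted p = 0.361). Fibroblast markers (12 of 12), pericyte and smooth muscle markers (6 of 6 tested) and endothelial markers (6 of 7 tested) were also above 0, against 47.6% of all lines. Their part in Igf1, Igfbp6 and Igfbp7 was not tested.

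The long non-coding RNAs come next. H19, maternally expressed and transcribed from the same imprinted domain as Igf2 (chr7:142575529-142578143, minus strand), had 1.51, 5.74, 4.81, 2.59 and 2.91 FPKM in GSK343 replicates 1 to 5, against 3.03, 1.25, 2.80, 1.99 and 2.29 FPKM in vehicle replicates 1, 2, 3, 5 and 6. GSK343 replicates 2 and 3 were well above all other tumours, and the remaining 3 lay within the vehicle range. The means were 3.51 ± 1.72 FPKM in GSK343 tumours and 2.27 ± 0.701 FPKM in vehicle tumours (SD, n = 5 each; log2 fold change 0.41, SE 0.264, limma adjusted p = 0.443). Skeletal muscle markers moved with it. All 10 had a log2 fold change above 0, against 47.6% of all lines. An unadjusted limma p under 0.05 in that direction was reached by 8 of them, against 10.7% of all lines. Ckm, Myl1, Myh4, Myh1 and Tnnc2 were listed at 0 in vehicle replicate 2, the tumour with the least H19. GSK343 replicate 2, with the most H19, had a muscle score of 3.78, below GSK343 replicates 3 (5.27), 4 (3.99) and 5 (4.07). With the muscle score as a covariate, an alternative chosen after the data were seen, the log2 fold change of H19 was −0.09 (limma adjusted p = 0.894), against 0.64 with the pan-leukocyte and 0.54 with the fibroblast score. Without GSK343 replicate 2 it was 0.24 (limma adjusted p = 0.621). The muscle markers were themselves higher on average in GSK343 tumours, so their score and the drug cannot be told apart. Their part in H19 was not tested. The ratio of H19 to the summed Igf2 lines was 0.643, 1.40, 1.52, 1.01 and 2.22 in GSK343 replicates 1 to 5, against 1.08, 0.692, 1.53, 0.637 and 0.757 in vehicle replicates 1, 2, 3, 5 and 6, and the groups overlapped.

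H19 is also the precursor of miR-675, whose hairpin line (chr7:142577064-142577147) lies within an exon of H19, so the reads of both cannot be told apart. The hairpin line held 0.0552 to 0.392 FPKM in GSK343 tumours and 0.0579 to 0.328 FPKM in vehicle tumours. The mature sequences are shown because they are the regulatory product of the member with the highest mean. They come from RefSeq (GRCm38.p6, chr7:142577078-142577099 and chr7:142577112-142577133, minus strand), 5′ to 3′, with the seed, bases 2 to 8, in capitals.

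miR-675-3p: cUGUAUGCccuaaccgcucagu
miR-675-5p: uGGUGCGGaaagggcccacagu

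The seeds differ, so the arms fall into separate seed groups. Mir483, within an intron of Igf2, was listed at 0 in all 10 tumours, and Mir335, within an intron of Mest, was listed at 0 in all but GSK343 replicate 4.

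Meg3, a maternally expressed RNA of the Dlk1-Dio3 domain (chr12:109541001-109571726, plus strand), had 1.24, 2.98, 2.31, 1.29 and 1.46 FPKM in GSK343 replicates 1 to 5, against 1.17, 5.004, 1.19, 1.503 and 2.07 FPKM in vehicle replicates 1, 2, 3, 5 and 6. Vehicle replicate 2 held more than any other tumour, and the other 9 values of both groups overlapped. The means were 1.86 ± 0.761 FPKM in GSK343 tumours and 2.19 ± 1.62 FPKM in vehicle tumours (SD, n = 5 each; log2 fold change −0.08, SE 0.284, limma adjusted p = 0.910). Without vehicle replicate 2 the log2 fold change was 0.18 (limma adjusted p = 0.619). Rian and Mirg, non-coding RNAs farther along the same domain, were also highest in that tumour, at 4.22 and 0.716 FPKM. Rian averaged 2.16 ± 0.808 FPKM in GSK343 tumours and 2.09 ± 1.22 FPKM in vehicle tumours (SD, n = 5 each; limma adjusted p = 0.917). The domain also holds many small RNAs. Of 66 miRNA lines there, 61 were listed at 0 in all tumours, and of 23 small nucleolar RNA lines 17 were, with no value above 0.634 FPKM, in libraries selected for poly-A.

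Kcnq1ot1, the paternally expressed antisense RNA that silences genes of the Kcnq1 domain in cis (chr7:143203458-143296549, minus strand), had 0.842, 1.43, 0.972, 1.18 and 0.540 FPKM in GSK343 replicates 1 to 5, against 1.24, 1.46, 1.04, 1.06 and 1.78 FPKM in vehicle replicates 1, 2, 3, 5 and 6. The lowest 3 values were those of GSK343 replicates 5, 1 and 3, and the others overlapped. The means were 0.992 ± 0.336 FPKM in GSK343 tumours and 1.32 ± 0.311 FPKM in vehicle tumours (SD, n = 5 each; log2 fold change −0.22, SE 0.139, limma adjusted p = 0.423). It was −0.14 without GSK343 replicate 5, −0.07 with the pan-leukocyte score and −0.007 with the fibroblast score as a covariate, and −0.44 after quantile normalization. What part those markers had was not tested. Kcnq1ot1 lies within Kcnq1 on the other strand and shares 121 of its 93092 exon bases with Kcnq1. Without a stated strand setting the reads of both cannot be told apart there. Kcnq1ot1 is annotated without introns, so along the rest of its length reads of unspliced Kcnq1 RNA cannot be told apart from it either. Polycomb proteins are known to take part in silencing this domain in the mouse embryo and placenta. Of 11 genes of the domain, 8 were tested and 0 passed, with 2 log2 fold changes above 0. Tspan32, a tetraspanin of blood cells, averaged 2.62 ± 1.12 FPKM in GSK343 tumours and 1.20 ± 0.414 FPKM in vehicle tumours (SD, n = 5 each; log2 fold change 0.68, limma adjusted p = 0.198). Ascl2, a transcription factor of the placenta and of intestinal stem cells, averaged 1.82 ± 0.822 FPKM in GSK343 tumours and 3.33 ± 1.10 FPKM in vehicle tumours (SD, n = 5 each; log2 fold change −0.63, limma adjusted p = 0.203). Nap1l4, a nucleosome assembly protein, averaged 70.1 ± 10.7 FPKM in GSK343 tumours and 87.3 ± 15.6 FPKM in vehicle tumours (SD, n = 5 each; limma adjusted p = 0.285). A log2 fold change above 0 occurred in 10 of 10 pan-leukocyte and 1 of 11 hepatocyte and hepatoma markers, against 47.6% of all lines. The part of these markers in Tspan32, Ascl2 and Nap1l4 was not tested. Cdkn1c, the cell cycle inhibitor of the domain, Kcnq1 itself and Phlda2 had means below 1 FPKM. In the fit of all 33757 lines with any value their log2 fold changes were 0.36, −0.14 and −0.16 in that order, with limma adjusted p of 0.661, 0.366 and 0.460.

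Mest, a paternally expressed member of the alpha/beta hydrolase family (chr6:30723547-30748465, plus strand), had 3.26, 3.95, 0.880, 1.67 and 3.63 FPKM in GSK343 replicates 1 to 5, against 1.68, 1.37, 3.23, 3.77 and 3.11 FPKM in vehicle replicates 1, 2, 3, 5 and 6. In both groups the values fell into 3 tumours above 3 FPKM and 2 tumours below 1.7 FPKM. The means were 2.68 ± 1.33 FPKM in GSK343 tumours and 2.63 ± 1.05 FPKM in vehicle tumours (SD, n = 5 each; log2 fold change −0.02, SE 0.298, limma adjusted p = 0.978). Mest shares 912 of its 3945 exon bases with Copg2, a coat protein gene on the other strand, which held 9.61 to 16.3 FPKM in GSK343 tumours and 9.95 to 15.5 FPKM in vehicle tumours. Without a stated strand setting the reads of the shared bases cannot be told apart.

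The 3 genes below 1 FPKM were Peg3, Plagl1 and Dlk1, and their tests come from a fit of all 33757 lines with any value, in which 0.0178% of lines passed and none of these did. Peg3, a paternally expressed zinc finger gene (chr7:6703892-6730431, minus strand), had 0.197, 0.218, 0.178, 0.236 and 0.300 FPKM in GSK343 replicates 1 to 5, against 0.430, 0.178, 0.168, 0.152 and 0.153 FPKM in vehicle replicates 1, 2, 3, 5 and 6. Vehicle replicate 1 was the highest tumour, and the other 4 vehicle tumours were at 0.178 FPKM or below, beside the lowest GSK343 tumour. The log2 fold change was 0.02 (SE 0.0609, limma adjusted p = 0.933). Plagl1, a paternally expressed zinc finger transcription factor (chr10:13060504-13131694, plus strand), had 0.0304 to 0.0712 FPKM in GSK343 tumours, with a median of 0.0627 FPKM, and 0.0427 to 0.121 FPKM in vehicle tumours, with a median of 0.0520 FPKM. The ranges overlapped, and the log2 fold change was −0.02 (SE 0.0215) with a limma adjusted p of 0.752.

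Dlk1, a paternally expressed transmembrane protein of the Notch ligand family and a marker of fetal liver progenitors (chr12:109452823-109463336, plus strand), was the lowest of the 10. It had 0.0212, 0.0786, 0, 0.0219 and 0.0273 FPKM in GSK343 replicates 1 to 5, against 0.0178, 0.0138, 0.0477, 0.0390 and 0.0553 FPKM in vehicle replicates 1, 2, 3, 5 and 6. No tumour of either group reached 0.1 FPKM. The log2 fold change was −0.01 (SE 0.0202, limma adjusted p = 0.900), and the line of Dlk1 on an unplaced scaffold was listed at 0 in all 10 tumours. At the inferred depths these values correspond to at most about 16.7 reads for Dlk1 and 29.6 reads for Plagl1 in a tumour. Differences between values this far below 1 FPKM are compressed on the log2(FPKM + 1) scale and were not detectable at this depth. Dlk1 and Plagl1 were the silent or nearly silent members, Peg3 was detected in every tumour at a trace level, and the remaining 7 were transcribed at a low level.

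Dlk1 and Meg3 are neighbours on chromosome 12, with means over all tumours of 0.0323 and 2.02 FPKM. RefSeq promoter windows (GRCm38.p6, 250 bases before to 50 bases after a start, 5′ to 3′ on the strand of the gene) are shown for Dlk1 and Meg3, and for the nearly silent Plagl1 beside the transcribed Igf2r, with every CG dinucleotide in capitals, because CG-rich promoters are where DNA methylation and Polycomb marks are known to act. The windows were chr12:109452573-109452872 for Dlk1, chr12:109540746-109541045 for Meg3, chr10:13090582-13090881 for Plagl1 and chr17:12769657-12769956 for Igf2r.

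Dlk1: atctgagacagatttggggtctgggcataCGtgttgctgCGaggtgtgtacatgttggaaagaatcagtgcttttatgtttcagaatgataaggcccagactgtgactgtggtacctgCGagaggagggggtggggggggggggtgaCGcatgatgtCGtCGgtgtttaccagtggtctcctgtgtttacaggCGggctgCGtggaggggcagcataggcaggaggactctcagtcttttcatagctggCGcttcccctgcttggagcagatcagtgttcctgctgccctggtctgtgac
Meg3: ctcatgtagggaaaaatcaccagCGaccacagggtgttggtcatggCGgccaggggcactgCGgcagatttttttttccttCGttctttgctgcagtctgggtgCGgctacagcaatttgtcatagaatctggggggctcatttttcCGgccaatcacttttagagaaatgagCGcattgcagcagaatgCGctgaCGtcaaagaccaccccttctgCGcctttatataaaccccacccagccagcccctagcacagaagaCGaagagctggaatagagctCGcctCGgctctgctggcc
Plagl1: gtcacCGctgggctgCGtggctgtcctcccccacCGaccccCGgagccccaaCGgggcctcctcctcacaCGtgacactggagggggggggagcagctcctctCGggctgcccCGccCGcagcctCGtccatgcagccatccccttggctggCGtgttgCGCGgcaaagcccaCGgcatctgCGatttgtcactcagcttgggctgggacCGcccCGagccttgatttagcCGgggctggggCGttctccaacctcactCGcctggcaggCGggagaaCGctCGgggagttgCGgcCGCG
Igf2r: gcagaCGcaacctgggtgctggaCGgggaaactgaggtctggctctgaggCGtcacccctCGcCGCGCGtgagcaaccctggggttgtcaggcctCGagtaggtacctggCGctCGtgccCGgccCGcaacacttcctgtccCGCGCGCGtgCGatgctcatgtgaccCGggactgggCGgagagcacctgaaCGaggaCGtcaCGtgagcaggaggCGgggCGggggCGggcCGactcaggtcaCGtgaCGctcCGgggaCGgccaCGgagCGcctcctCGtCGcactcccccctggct

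The motif counted was CG, which reads the same on both strands. The Dlk1 window held 9, and 45.8% of the 32851 windows in the table held at least as many. The Meg3 window shown, at the start of its annotated gene, held 13, which 37.9% of windows reached. The other RefSeq window of Meg3, at a start farther downstream (chr12:109545148-109545447), held 1, which 94.6% reached. The Plagl1 window held 26, which 16.9% reached, and the Igf2r window 34, which 7.7% reached. The Plagl1 window lies inside the gene, downstream of its annotated start (chr10:13060504), while the Igf2r window spans the annotated start of Igf2r. The median over all windows was 7, so the nearly silent Plagl1 and the transcribed Igf2r both had CG-rich windows. Windows were found for 9 of the 10 genes, all but H19. Methylation and histone marks were not measured.

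The genes whose level followed each imprinted gene most closely over the 10 tumours are given as Pearson's r of log2(FPKM + 1) over 11422 named lines, as a description, since the points share library and tissue makeup. For H19 they were Myh1 (0.923) and Des (0.878), both muscle proteins, and Rchy1 (0.871). For Igf2r they were Prkcd (0.987), Clec12a (0.983) and Inpp5d (0.981), the last 2 being genes of myeloid and other blood cells. For Grb10 they were Pxdn (0.939), an extracellular matrix peroxidase, Tmem45a (0.932) and Rin3 (0.905). For Mest they were Ulbp1 (0.953), a ligand of the natural killer receptor NKG2D, Trip13 (0.939) and Mlst8 (0.933). For Meg3 they were Ring1 (0.919), a subunit of Polycomb repressive complex 1, Wdr83os (0.908) and Ptcd2 (0.902). For Igf2 they were Ss18l2 (0.918), Rpl6 (0.866) and S100a13 (0.862), and for Kcnq1ot1 Mier2 (0.945), Ift81 (0.939) and Doc2g (0.933). Among the 7 imprinted genes themselves the highest r was 0.729, between Grb10 and Igf2r.

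**Figure D4:**
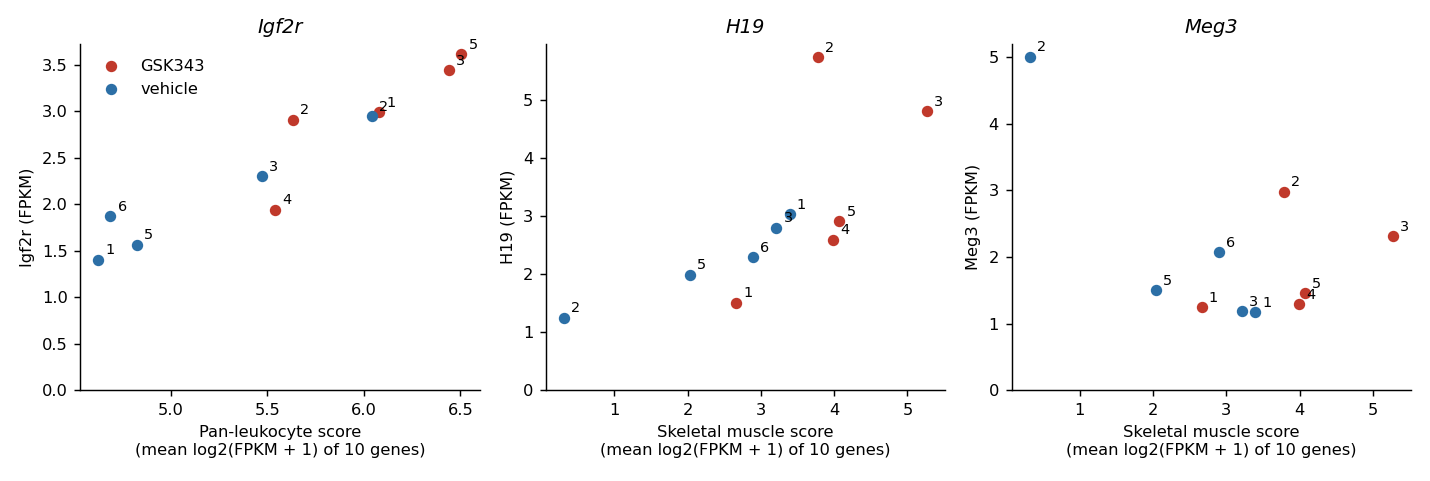
Level in FPKM of Igf2r against the pan-leukocyte score, and of H19 and Meg3 against the skeletal muscle score (each the mean log2(FPKM + 1) of 10 genes), with 1 point per tumour, GSK343 in red and vehicle in blue, numbered by replicate. Igf2r runs from 1.40 to 3.61 FPKM along the leukocyte score, and vehicle replicate 2 has the lowest muscle score, the lowest H19 (1.25 FPKM) and the highest Meg3 (5.004 FPKM).

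Beside the 10 genes, 81 others were in the table, listed as imprinted or as neighbours, with imprinting in these tumours not measured. Of these, 36 had a mean of at least 1 FPKM and were tested, 45 were below it, 30 below 0.1 FPKM, and 10 were listed at 0 in all tumours, Ins2 and Th beside Igf2 among them. Of the 36 tested, 0 passed, 6 had an unadjusted limma p under 0.05 in the higher and 3 in the lower direction, against 10.7% and 6.86% of all lines. The median log2 fold change was −0.05 over the 36, against −0.01 over all lines, and 16 were above 0. The most abundant were Dcn, a matrix proteoglycan, at 1082 ± 108 FPKM in GSK343 tumours and 1169 ± 112 FPKM in vehicle tumours (SD, n = 5 each), and Gnas, the stimulatory G protein subunit, at 607 ± 20.6 FPKM in GSK343 tumours and 592 ± 16.1 FPKM in vehicle tumours (SD, n = 5 each). In all, 22 of the 81 averaged 10 FPKM or more, which none of the 10 genes did.

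By domain, the neighbours gave few tested genes. In the Igf2r domain Airn, the antisense RNA that silences Igf2r on the paternal copy, averaged 2.78 ± 0.716 FPKM in GSK343 tumours and 3.14 ± 0.863 FPKM in vehicle tumours (SD, n = 5 each; limma adjusted p = 0.724), while the other 4 genes were below 1 FPKM. All 5 neighbours of Peg3 were below 1 FPKM, 3 of them listed at 0 in all tumours. Mrpl23 beside H19, Ddc beside Grb10, Sf3b5 beside Plagl1 and Copg2 beside Mest were the tested neighbours of those genes, with limma adjusted p from 0.575 to 0.735. Among 20 further imprinted genes of paternal expression, 7 were tested. Sgce, a sarcoglycan, averaged 3.65 ± 1.06 FPKM in GSK343 tumours and 2.28 ± 0.863 FPKM in vehicle tumours (SD, n = 5 each; log2 fold change 0.51, limma adjusted p = 0.222). Mcts2 had a log2 fold change of 0.25 (limma adjusted p = 0.281) and Peg13, a non-coding RNA, one of 0.21 (limma adjusted p = 0.489). Among 20 listed as of maternal or mixed expression, with imprinting in these tumours not measured, 15 were tested. Qpct, a glutaminyl cyclase, averaged 3.55 ± 0.964 FPKM in GSK343 tumours and 2.05 ± 0.439 FPKM in vehicle tumours (SD, n = 5 each; log2 fold change 0.56, limma adjusted p = 0.192), the smallest adjusted p of all 36. Gatm, an enzyme of creatine synthesis, averaged 16.3 ± 1.86 FPKM in GSK343 tumours and 9.83 ± 4.71 FPKM in vehicle tumours (SD, n = 5 each; log2 fold change 0.78, limma adjusted p = 0.206). Blcap averaged 19.6 ± 1.88 FPKM in GSK343 tumours and 23.7 ± 2.42 FPKM in vehicle tumours (SD, n = 5 each; log2 fold change −0.26, limma adjusted p = 0.212). Pan-leukocyte and fibroblast markers were higher on average in GSK343 tumours, and their part in Sgce, Qpct and Gatm was not tested.

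**Figure D5:**
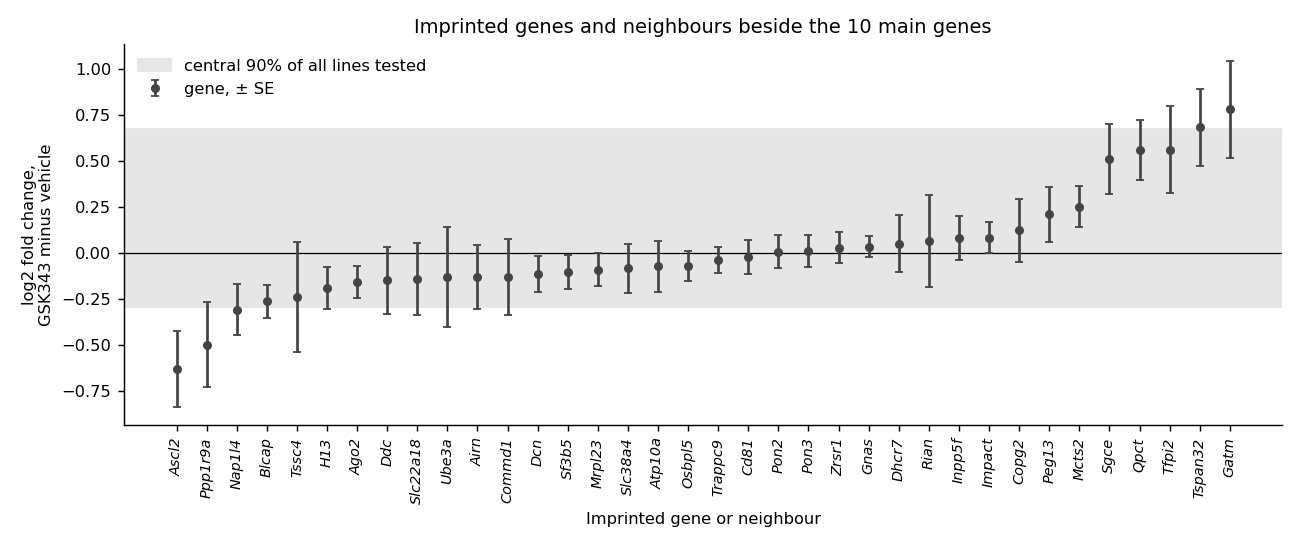
Fold change on the log2 scale (GSK343 minus vehicle, on log2(FPKM + 1)) of the 36 tested imprinted genes and neighbours beside the 10 main genes, ordered by value, with bars of 1 SE and the grey range of the central 90% of all lines tested. The values run from −0.63 for Ascl2 to 0.78 for Gatm, and 16 of the 36 lie above 0.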

How the data were processed

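Per the series' design text, poly-A RNA of 10 tumours (5 GSK343, 5 vehicle) was sequenced. The submitters' processing notes name the trimmer Trimmomatic 0.33, the aligner HISAT2 2.1.0, the assembler and quantifier StringTie 1.3.3b and the build mm10. Options, strand setting and annotation release were not given in the sources used here. The authors deposited 1 value per gene and tumour, scaled by length and library size, which was read as FPKM from the values themselves, since the header names no unit: they summed to 574547 to 623397 per tumour, and low values fell on steps. Depth follows only from those steps, so no counting interval is given. GENCODE M21 held 54165 of the 54986 identifiers and gave gene types and overlaps, and 10 further columns had neither name nor values.

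GSK343 and vehicle tumours were compared on log2(FPKM + 1) by limma 3.58.1 in R 4.3.3, using its intensity trend, for the 14496 lines that averaged 1 FPKM or more, two-sided, with Benjamini-Hochberg adjustment over all of them and calls under 0.05. Fold changes on this scale understate those of low genes. The p-values set the difference between the groups against the spread between tumours. A marker score is the mean log2(FPKM + 1) of a list. Tables and plots were made with Python 3.11.15, pandas 2.3.3 and matplotlib 3.10.9, and the test was checked on simulated data.

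The members and lists were chosen with earlier results of these data known. Named were all 10 genes, up to 3 tested genes with the smallest limma p of each companion list described, and for each tested member the 3 named protein-coding or long non-coding genes with the highest Pearson's r. Other genes named for their role, domain or level (Igf1r, Rian's neighbour Mirg, Airn, Copg2, Dcn, Gnas and the like) were chosen after their values were seen. Cell type marker lists are given by counts, sums and scores, and single markers are named where they were listed at 0 or by the r above.

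Alternatives covered the filter, pseudocount, scaling, variance model, tumour weights, marker covariates, the replicate number as a block and each tumour left out in turn.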

Additional observations from a re-analysis of the deposited data

Results flagged for a closer look

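In 13 of 86 groups of 5 tumours, over 43 genes, 1 tumour lay farther from the rest of its group than Dixon's 95% limit allows. Chance alone gives about 1 in 20 such groups if the values are normally distributed, which was not tested here. All 13 distant values were the highest of their group, and tumours that share a makeup are not independent across genes.

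Vehicle replicate 2 was the high tumour in 6 of these groups. It held 5.004 FPKM of Meg3, where the other vehicle tumours held 1.17 to 2.07 FPKM, and 4.22 FPKM of Rian, against 1.12 to 1.84 FPKM in the others. It also held 3.78 FPKM of Sgce (others 1.71 to 2.18), 1.32 FPKM of Peg13 (others 0.653 to 0.820), 17.1 FPKM of Igf1 (others 1.20 to 4.42) and 19.1 FPKM of the binding protein Igfbp6 (others 5.60 to 7.002). This tumour had the highest pan-leukocyte and fibroblast scores of the vehicle tumours, 6.04 and 4.86, and the lowest skeletal muscle score of all, 0.315. The part of these markers in the 6 values was not tested.

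Of the other vehicle tumours, replicate 1 held 0.430 FPKM of Peg3 (others 0.152 to 0.178) and 2424 FPKM of Afp (others 1954 to 2087), and replicate 3 held 45.4 FPKM of Ehmt2 (others 38.5 to 39.6).

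Of the GSK343 tumours, replicate 4 held 63.1 FPKM of Mrpl23 (others 45.4 to 49.1) and 3.22 FPKM of Ascl2 (others 1.21 to 1.76). Replicate 5, which had the highest fibroblast score, held 27.7 FPKM of Igf1 (others 6.07 to 9.89), and replicate 2 held 13.5 FPKM of Igf2bp2 (others 8.26 to 9.53).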

How the results depend on the processing

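None of the 7 tested imprinted genes passed the limma threshold under any of the alternatives run, and the lowest limma adjusted p of any was 0.0881, for Igf2r. The number of lines called, 12 in all, was 6 with no filter, 3 with a mean of at least 5 FPKM, 7 with quantile normalization, 2 with the pan-leukocyte or the fibroblast covariate, 4 with the muscle covariate, 4 without GSK343 replicates 3 and 5, and 3 to 96 with 1 tumour left out, the highest without vehicle replicate 2. Signs turned as follows. Igf2 had −0.070 with quantile normalization, −0.12 with the muscle covariate, and −0.28 to 0.35 with 1 tumour left out. Its highest values were 0.69 with the leukocyte and 0.60 with the fibroblast covariate. Meg3 had 0.033 with array weights, 0.28 with the muscle covariate and −0.21 to 0.18 with 1 tumour left out. Its lowest values were −0.47 with the leukocyte and −0.39 with the fibroblast covariate. Grb10 had −0.075 with the leukocyte and −0.16 with the fibroblast covariate, Igf2r −0.014 with the leukocyte covariate and H19 −0.094 with the muscle covariate. Mest had 0.23 with the leukocyte covariate, 0.080 with the muscle covariate, 0.13 without GSK343 replicates 3 and 5, and −0.16 to 0.20 with 1 tumour left out. Kcnq1ot1 stayed below 0 but ran from −0.44 with quantile normalization to −0.0070 with the fibroblast covariate, and from −0.30 to −0.14 with 1 tumour left out. With 1 tumour left out, H19 had 0.24 to 0.60, Grb10 0.076 to 0.25 and Igf2r 0.33 to 0.51. The cause was not tested. Replicate numbers did not pair the tumours: deviations of tumours with the same number correlated at −0.112, −0.332, 0.0349 and −0.194, and no tumour matched its own number best. With the replicate block 2 lines were called, Meg3 had 0.0065 and Mest 0.13. The muscle covariate, the summed Igf2 lines and the pair left out were chosen after seeing the data. All 7 genes have means under 5 FPKM, so the stricter filter gave none of them a value, and the 3 below 1 FPKM had values only without a filter.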

Other observations

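Genes that keep imprints through the early embryo were expressed in the tumours. Of 11, 10 were tested and 0 passed, and Dppa3 was listed at 0 in all tumours. Zfp57, the zinc finger protein that binds methylated imprinting control regions, averaged 20.6 ± 6.82 FPKM in GSK343 tumours and 15.7 ± 4.81 FPKM in vehicle tumours (SD, n = 5 each; log2 fold change 0.35, limma adjusted p = 0.470). Its co-repressor Trim28 averaged 85.6 ± 14.3 FPKM in GSK343 tumours and 93.7 ± 6.60 FPKM in vehicle tumours (SD, n = 5 each; limma adjusted p = 0.527). Ehmt2, a histone H3 lysine methyltransferase, averaged 37.9 ± 4.42 FPKM in GSK343 tumours and 40.2 ± 2.96 FPKM in vehicle tumours (SD, n = 5 each; limma adjusted p = 0.624).

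Of the 3 IGF2 mRNA-binding proteins, fetal regulators of Igf2 and other messages, 0 passed. All 3 had log2 fold changes below 0, while 47.6% of all lines were above 0. The hepatocyte and hepatoma markers moved the same way, with 10 of 11 below 0 (median log2 fold change −0.27) and 4 with an unadjusted limma p under 0.05 in that direction, against 6.86% of all lines, and their part in these values was not tested. Igf2bp3 held 8.62 to 13.8 FPKM in GSK343 tumours and 13.3 to 15.04 FPKM in vehicle tumours, with GSK343 replicate 4 alone inside the vehicle range (log2 fold change −0.43, SE 0.106, limma adjusted p = 0.191). Igf2bp1 had −0.19 (limma adjusted p = 0.369) and Igf2bp2 −0.17 (limma adjusted p = 0.697). Of 8 fetal liver genes and regulators of H19 and Afp, 5 were tested and 0 passed, all with log2 fold changes below 0, like 10 of the 11 hepatocyte and hepatoma markers. Afp, alpha-fetoprotein, averaged 1775 ± 252 FPKM in GSK343 tumours and 2085 ± 197 FPKM in vehicle tumours (SD, n = 5 each; limma adjusted p = 0.298), a level far above that of any of the 10 imprinted genes. Zhx2, a repressor of Afp and H19 in the mouse liver after birth, had a log2 fold change of −0.06 (limma adjusted p = 0.714), and Gpc3, a glypican, one of −0.17 (limma adjusted p = 0.748).

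Of 12 Notch pathway genes listed because of Dlk1, 8 were tested and 0 passed. The groups did not overlap for the receptors Notch1 and Notch3, as for 1.42% of all lines in this direction. Notch1 held 3.42 to 4.07 FPKM in GSK343 tumours and 2.35 to 3.03 FPKM in vehicle tumours (log2 fold change 0.37, SE 0.086, limma adjusted p = 0.189). Notch3 held 7.14 to 9.27 FPKM in GSK343 tumours and 4.998 to 6.87 FPKM in vehicle tumours (log2 fold change 0.40, SE 0.095, limma adjusted p = 0.189). The pericyte and smooth muscle markers moved with both, with 6 of 6 tested above 0, against 47.6% of all lines. Of these markers, 4 had an unadjusted limma p under 0.05, against 10.7% of all lines in that direction. The fibroblast and pan-leukocyte markers moved the same way, and the part of these lists was not tested. Notch4 had a log2 fold change of −0.30 (limma adjusted p = 0.249).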
